A study of Homo sapiens with 6 samples.

Results

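The genes described here are direct targets of the transcription factor p53 and regulators of apoptosis, measured in MDA-MB-231 cells exposed to selamectin or left as controls. They were chosen by name: 36 symbols were listed, and a gene entered when the platform's annotation gave its transcript cluster that symbol alone. A transcript cluster is the group of array probes assigned to 1 locus. By this rule 34 of the 36 were found among 18417 named genes, each with a single cluster, and BTG2 and BIRC3 were not analysed here. The 34 genes fall by role into 15 p53 targets, 12 members of the BCL2 family, and 7 genes of the caspase machinery and its inhibitors. BAX, BBC3 and PMAIP1 belong to the BCL2 family and are p53 targets as well.

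MDA-MB-231 is a human cell line of a triple-negative breast cancer. There were 3 control arrays, which the titles call untreated while the protocol speaks of vehicle, and 3 arrays of cells given 1 µM selamectin for 24 h. Selamectin, a veterinary antiparasitic drug, belongs to the avermectins, and the series title concerns inhibition of the SIN3 corepressor. Values are log2 expression values that the authors deposited, and differences are selamectin minus untreated. All 6 arrays are of the same line, and nothing in the labels says more than that the replicates were independent, so the p-values measure the spread between these cultures.

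p53 is a transcription factor that stress stabilises. In unstressed cells MDM2, a ubiquitin ligase that p53 itself induces, marks p53 for destruction, and its relative MDM4 blocks p53 activity. Active p53 raises genes of cell cycle arrest, DNA repair, metabolism and cell death. The BCL2 family then decides whether the mitochondrial outer membrane is opened: BH3-only proteins engage survival members such as BCL2 and MCL1 and set free the pore formers BAX and BAK1. Released cytochrome c assembles with APAF1 into a platform that activates CASP9, while IAP proteins such as XIAP hold caspases in check and DIABLO relieves that block. MDA-MB-231 is known to carry a mutant p53, so target genes in this line are not a simple readout of the normal protein.

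The labelled cell type was checked against its markers. The mesenchymal marker VIM lay between 12.63 and 12.94 on the 6 arrays. VIM was higher with selamectin without overlap (0.23, limma adjusted p = 0.091). KRT8, a keratin this line is known to express, lay between 13.68 and 14.00. KRT8 is 1 of 8 listed luminal or epithelial markers, which ranged from 5.58 to 14.00. In limma 0 of these 8 passed, against 4.69% of all named genes. Mean untreated values were 13.41 for KRT18, 9.17 for ERBB2, 7.16 for GATA3 and 6.97 for ESR1. They were 6.27 for CDH1, 6.24 for EPCAM and 5.60 for PGR. Without overlap, CDH1 was lower (-0.26, limma adjusted p = 0.064) and PGR (0.14) and GATA3 (0.16) were higher. The leukocyte marker PTPRC lay between 4.77 and 4.92. All 4 measured leukocyte markers lay between 4.77 and 7.48, and 0 of them passed in limma, against 4.69% of all named genes. Among the marker lists for the line and for fibroblasts, CD44 (0.42) and PDGFRB (0.34) rose and SPARC (-0.45) fell. The 6 markers of the line ranged from 7.04 for SPARC to 12.94 for VIM, and FN1 stood at -0.43 (limma adjusted p = 0.083) with groups that did not overlap. The 4 endothelial markers ranged from 5.43 to 9.71 and 0 of them passed; CDH5 stood at -0.59 (adjusted p = 0.067), with every selamectin array below every untreated one. The part of these markers in the results was not tested. No detection calls were used here, so a low value is not shown to be at background. On the first 2 principal components over all named genes, selamectin array 3 stood apart from the other arrays on the second, at 18.5 against -9.83 to 3.97. Of the 34 genes, 22 had their lowest selamectin value on array 3, which is 64.7%, against 48.1% of all named genes.

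One promoter window of each gene past the test is shown first, because p53 elements are what the p53 targets are named for. The windows come from RefSeq on GRCh38.p14 and run from 250 bases before to 50 bases after an annotated gene start. Of the 34 genes, 28 had at least 1 window, and they had 53 windows in all. A p53 element was searched as a pair of the 10-base p53 half-sites, separated by at most 13 bases, each with its fixed C and G and at most 1 mismatch to the consensus. The GC box (GGGCGG, both strands) and the E-box (CACGTG), the motif of MAX and its SIN3-binding partners, were searched as well; neighbouring GC boxes can overlap and each was counted. Capitals mark the p53 elements and GC boxes found, in windows written 5′ to 3′ along the gene's strand, and for DDB2 both half-sites.
MDM2 (chr12:68808767-68809066, plus strand, start inside the gene): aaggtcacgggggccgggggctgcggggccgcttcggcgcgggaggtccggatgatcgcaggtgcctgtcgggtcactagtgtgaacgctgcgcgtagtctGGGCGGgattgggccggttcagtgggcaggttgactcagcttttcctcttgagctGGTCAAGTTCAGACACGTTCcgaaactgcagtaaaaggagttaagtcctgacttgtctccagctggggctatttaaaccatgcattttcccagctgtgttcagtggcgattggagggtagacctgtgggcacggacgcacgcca
TIGAR (chr12:4320963-4321262, plus strand): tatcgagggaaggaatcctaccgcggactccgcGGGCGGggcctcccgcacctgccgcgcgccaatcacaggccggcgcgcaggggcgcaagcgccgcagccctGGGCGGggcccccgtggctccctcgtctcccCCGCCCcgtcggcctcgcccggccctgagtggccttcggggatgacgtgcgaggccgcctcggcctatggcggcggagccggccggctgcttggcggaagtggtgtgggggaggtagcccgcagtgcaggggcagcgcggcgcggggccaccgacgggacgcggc
CASP9 (chr1:15524166-15524465, minus strand): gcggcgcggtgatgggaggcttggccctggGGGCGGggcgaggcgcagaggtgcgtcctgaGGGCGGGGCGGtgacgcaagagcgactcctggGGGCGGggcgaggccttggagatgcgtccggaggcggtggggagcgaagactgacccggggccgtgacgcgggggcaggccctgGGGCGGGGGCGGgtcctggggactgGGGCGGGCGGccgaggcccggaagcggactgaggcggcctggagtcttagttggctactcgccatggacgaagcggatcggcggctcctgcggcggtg
DDB2 (chr11:47214979-47214999, plus strand): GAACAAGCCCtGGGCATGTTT

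The pair of half-sites in the MDM2 window begins at base -94 relative to the internal start, has no spacer and holds 2 mismatches in all. The windows at the upstream MDM2 starts held no such pair. DDB2, a damage-recognition protein of nucleotide excision repair, had a pair without a mismatch, with a spacer of 1 base, beginning 5 bases after a start. Pairs were found in 3 of the 53 windows, in MDM2 and DDB2 only, which is 5.66%, against 1.84% of all 35116 windows. The TIGAR window held 3 GC boxes and no pair, and the CASP9 window 8 GC boxes and no pair. A second CASP9 window (chr1:15524741-15525040, minus strand), not shown, held 9 GC boxes, 1 single half-site without a mismatch and no pair. Such a half-site was present in 7 of the 53 windows, 1 window each of FAS, SESN1, DDB2, AEN, BAK1, CASP8 and CASP9, which is 13.2%, against 6.63% of all windows. A GC box was present in 77.4% of the members' windows and 45% of all windows, and an E-box in 11.3% and 7.26%. Windows of 1 gene overlap and are not independent, and a match is only a stretch of letters. Sequence outside the windows was not searched, so a window without a pair does not show that its gene lacks a p53 element. Of the genes with a pair, MDM2 rose, and DDB2 changed by 0.04 log2 units (95% interval -0.16 to 0.24).

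Of the 34 genes, 2 rose, 1 fell and 31 did not pass the test (limma, Benjamini-Hochberg adjusted over all 18417 named genes, adjusted p under 0.05). TIGAR and MDM2, both p53 targets, were higher by 1.57-fold and 1.31-fold, and CASP9, the initiator caspase of the mitochondrial pathway, was 1.70-fold lower. Over all named genes, 2.41% were called higher and 2.28% lower, 4.69% together, against 8.82% of these 34, which is 3 genes. The difference between those shares was not tested. No member of the BCL2 family passed in limma, and 0 of the 12 had an unadjusted p under 0.05; 19.9% of all named genes did.

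**Figure D1:**
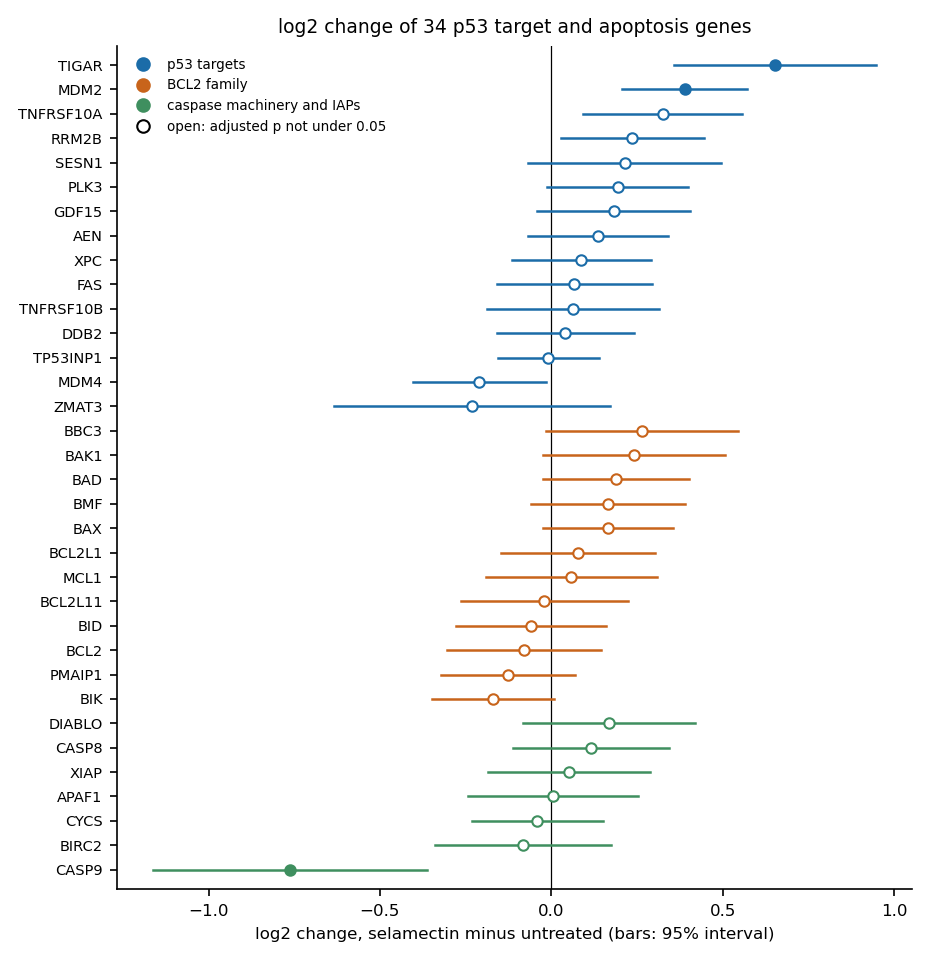
The plot shows the log2 change of each of the 34 genes (horizontal axis, selamectin minus untreated) with its 95% interval, coloured by role, filled where the limma adjusted p was under 0.05. TIGAR at 0.65 and MDM2 at 0.39 stand to the right of 0 and CASP9 at -0.76 to the left, and the other 31 are open symbols.

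TIGAR encodes a fructose-2,6-bisphosphatase that slows glycolysis and favours the pentose phosphate pathway. Its log2 values were 8.56, 8.27 and 8.69 on untreated arrays 1 to 3 and 9.29, 9.27 and 8.91 on selamectin arrays 1 to 3. The groups did not overlap, and selamectin array 3 was the nearest to the controls. The mean went from 8.51 ± 0.21 to 9.16 ± 0.21 (SD, n = 3), a log2 change of 0.65 ± 0.13 (SE) with a limma adjusted p of 0.022. Over 16 alternative settings the adjusted p lay between 0.0037 and 0.10. The call was lost without untreated array 1 (0.078), untreated array 2 (0.056), selamectin array 1 (0.062) or selamectin array 2 (0.098), and when all clusters entered the fit (0.10).

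MDM2, the ubiquitin ligase of p53 feedback, also rose. Its log2 values were 11.26, 11.23 and 11.41 untreated and 11.74, 11.62 and 11.71 with selamectin. All selamectin arrays lay above all untreated arrays, and selamectin array 3 lay between the other two. The mean went from 11.30 ± 0.10 to 11.69 ± 0.06 (SD, n = 3), a log2 change of 0.39 ± 0.08 (SE) with a limma adjusted p of 0.027. Over the 16 alternatives the adjusted p lay between 0.012 and 0.10. The call was lost without any one array except selamectin array 3, at 0.10, 0.064 and 0.058 without untreated arrays 1, 2 and 3 and 0.074 and 0.073 without selamectin arrays 1 and 2, and with all clusters in the fit (0.085).

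MDM4, the MDM2 relative that also restrains p53, stood in the other direction without passing. Its log2 values were 9.96, 9.82 and 9.90 untreated and 9.70, 9.63 and 9.73 with selamectin. The groups did not overlap, with every selamectin array below every untreated one. The log2 change was -0.21 (95% interval -0.40 to -0.02, limma adjusted p = 0.22), and the adjusted p over the 16 alternatives lay between 0.045 and 0.50. It passed only with array weights, which gave untreated array 3 a weight of 5.11 and the other arrays between 0.45 and 1.22.

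The death receptors carry signals from outside the cell to CASP8. TNFRSF10A, a receptor for the ligand TRAIL, had log2 values of 8.70, 8.65 and 8.70 untreated and 9.13, 9.09 and 8.80 with selamectin. The groups did not overlap, and selamectin array 3 lay close to the controls. The log2 change was 0.32 (95% interval 0.09 to 0.56, limma adjusted p = 0.11), with an adjusted p between 0.011 and 0.33 over the 16 alternatives. Without selamectin array 3 it passed at 0.43 (0.026), and it also passed with array weights (0.011). TNFRSF10B, the second TRAIL receptor, changed by 0.06 and FAS by 0.07, with groups that overlapped. The TRAIL receptor genes resemble each other, and cross-hybridisation of their probes was not tested.

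Genes of nucleotide supply and DNA repair did not pass. RRM2B, the p53-inducible subunit of ribonucleotide reductase, had log2 values of 8.55, 8.54 and 8.73 untreated and 8.83, 8.91 and 8.80 with selamectin. Its groups did not overlap, and the log2 change was 0.24 (95% interval 0.03 to 0.45, limma adjusted p = 0.19). XPC, the damage sensor of nucleotide excision repair, changed by 0.09 and its partner in that pathway DDB2 by 0.04, both with overlapping groups.

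Among the remaining p53 targets, PLK3, a stress-responsive kinase, stood at 0.19 (limma adjusted p = 0.28) with groups that did not overlap. It had log2 values of 7.60, 7.82 and 7.66 untreated and 7.83, 7.95 and 7.89 with selamectin. GDF15, a secreted stress cytokine, had log2 values of 11.46, 11.47 and 11.47 untreated and 11.81, 11.72 and 11.42 with selamectin. Its selamectin arrays 1 and 2 lay above the controls and array 3 below them, and its change of 0.18 (adjusted p = 0.35) became 0.30 (0.043) without selamectin array 3; it is named for that result, after its values were seen. ZMAT3, an RNA-binding p53 target, stood at -0.23 (95% interval -0.63 to 0.17) and at 0.0025 without selamectin array 3. Its log2 values were 10.15, 9.78 and 10.11 untreated and 10.14, 9.89 and 9.32 with selamectin, so that array 3 alone lay below the controls. SESN1, a sestrin that restrains mTORC1, stood at 0.21, the exonuclease AEN at 0.14 and TP53INP1 at -0.01, each with overlapping groups.

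**Figure D2:**
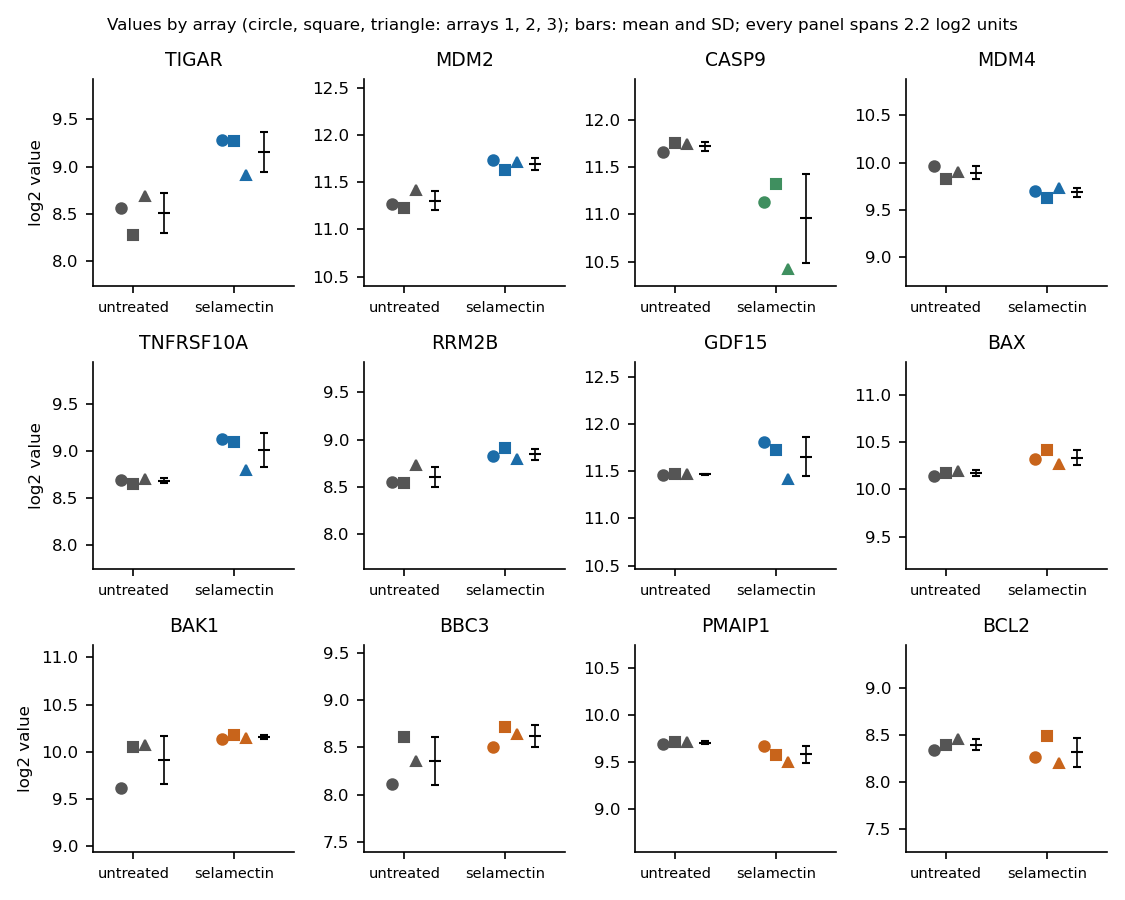
Each panel shows the log2 value of 1 gene (vertical axis) on the 3 untreated and 3 selamectin arrays, with circles, squares and triangles for arrays 1, 2 and 3 and the mean ± SD beside them. TIGAR and MDM2 lie higher and CASP9 lower on all 3 selamectin arrays, and the triangle of selamectin array 3 is the lowest for CASP9 at 10.42 and for GDF15 at 11.42.

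The effectors of the BCL2 family, which form the pore in the mitochondrial outer membrane, were slightly higher on every selamectin array without passing. BAX had log2 values of 10.14, 10.18 and 10.20 untreated and 10.32, 10.42 and 10.27 with selamectin. Its change was 0.17 (95% interval -0.02 to 0.35, limma adjusted p = 0.32). BAK1 had 9.62, 10.05 and 10.07 untreated and 10.14, 10.18 and 10.15 with selamectin. Untreated array 1 was well below the other controls, and the change of 0.24 (95% interval -0.02 to 0.51, adjusted p = 0.30) was 0.10 without it.

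The 7 BH3-only genes, whose proteins trigger the effectors, had changes of both signs, with 3 positive and 4 negative changes. BBC3, which encodes PUMA, had log2 values of 8.11, 8.61 and 8.35 untreated and 8.50, 8.72 and 8.64 with selamectin, which overlapped. Its change was 0.26 (95% interval -0.02 to 0.54, limma adjusted p = 0.28), and 0.14 without untreated array 1. PMAIP1, which encodes NOXA, had 9.69, 9.72 and 9.71 untreated and 9.67, 9.58 and 9.50 with selamectin, all below the controls, with a change of -0.13 (adjusted p = 0.47). These are both p53 targets, and they stood on opposite sides of 0. BAD, a BH3-only protein controlled by growth factor kinases, had 8.29, 8.53 and 8.45 untreated and 8.56, 8.59 and 8.68 with selamectin, without overlap, and a change of 0.19 (adjusted p = 0.31). BIK had 6.39, 6.44 and 6.36 untreated and 6.29, 6.31 and 6.09 with selamectin, all below the controls, and a change of -0.17 (adjusted p = 0.28). BMF stood at 0.17, BID, which links death receptors to mitochondria, at -0.06, and BCL2L11, which encodes BIM, at -0.02, with overlapping groups.

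The survival members all had small changes. The log2 changes were -0.08 for BCL2 (95% interval -0.30 to 0.14), 0.08 for BCL2L1, which encodes BCL-XL (-0.15 to 0.30), and 0.06 for MCL1 (-0.19 to 0.31). The groups overlapped for all 3, and the intervals lay within a 1.5-fold change in either direction.

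CASP9 fell, and it was the most changed of the 34 genes. Its log2 values were 11.66, 11.75 and 11.74 untreated and 11.13, 11.32 and 10.42 with selamectin. All selamectin arrays lay below all controls, and the selamectin arrays were spread far more widely than the controls, with array 3 the lowest. The mean went from 11.72 ± 0.05 to 10.96 ± 0.48 (SD, n = 3), a log2 change of -0.76 ± 0.18 (SE) with a limma adjusted p of 0.039. Without selamectin array 3 the change was -0.49 (adjusted p = 0.0080), smaller in size than that of TIGAR in the same setting, 0.77. The call was lost without untreated array 1 (0.12), 2 (0.091) or 3 (0.12), without the intensity trend (0.054), with a robust fit (0.092) and with all clusters in the fit (0.16), and the adjusted p over the 16 alternatives lay between 0.0055 and 0.16.

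The other genes that act with CASP9 did not pass. APAF1, the scaffold that activates it, changed by 0.0036 (95% interval -0.24 to 0.25), CYCS, cytochrome c, by -0.04 and DIABLO by 0.17 (limma adjusted p = 0.45). CYCS has processed pseudogenes that its probes may also match. CASP8, the initiator caspase of the death receptors, had log2 values of 10.06, 9.83 and 10.06 untreated and 10.23, 9.99 and 10.08 with selamectin, which overlapped, and a change of 0.12 (adjusted p = 0.57). Without untreated array 2 the change was 0.08 for DIABLO and 0.04 for CASP8, and without selamectin array 1 it was 0.09 and 0.05. The inhibitors BIRC2, at -0.08, and XIAP, at 0.05, had every selamectin value within the range of their controls. Over the 6 genes of this group other than CASP9, the log2 changes ran from -0.08 to 0.17.

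The 3 role groups were set side by side as descriptions, without a test. Of the 15 p53 targets, 12 lay above 0 and 3 below it, with a median of 0.14. Of the 12 BCL2 family members, 7 were positive and 5 negative, with a median of 0.07, and of the 7 genes of the caspase machinery, 4 were positive and 3 negative, with a median of 0.0036. Among all named genes 63% had a positive change and the median was 0.04. With BAX, BBC3 and PMAIP1 counted among them, the p53 targets became 18 genes, with 14 positive changes and a median of 0.15. Groups that did not overlap were seen for 5 p53 targets on the higher side and 1 on the lower, for 3 and 2 BCL2 family members, and for 0 and 1 caspase genes, against 16% of all named genes on the higher side and 9.3% on the lower.

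The group means differed between selamectin arrays. Relative to the untreated mean, the p53 targets stood at 0.24, 0.16 and 0.03 on selamectin arrays 1, 2 and 3, where the untreated arrays spanned -0.07 to 0.06. Array 3 thus lay within the range of the controls. The BCL2 family stood at 0.05, 0.13 and -0.01, against -0.05 to 0.03 untreated. The caspase machinery stood at 0.01, -0.04 and -0.20, against -0.13 to 0.09 untreated. Without CASP9 its other 6 genes stood at 0.11, 0.02 and -0.02, within their untreated range of -0.16 to 0.12. All named genes stood at 0.04, 0.05 and -0.01 on the same arrays.

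**Figure D3:**
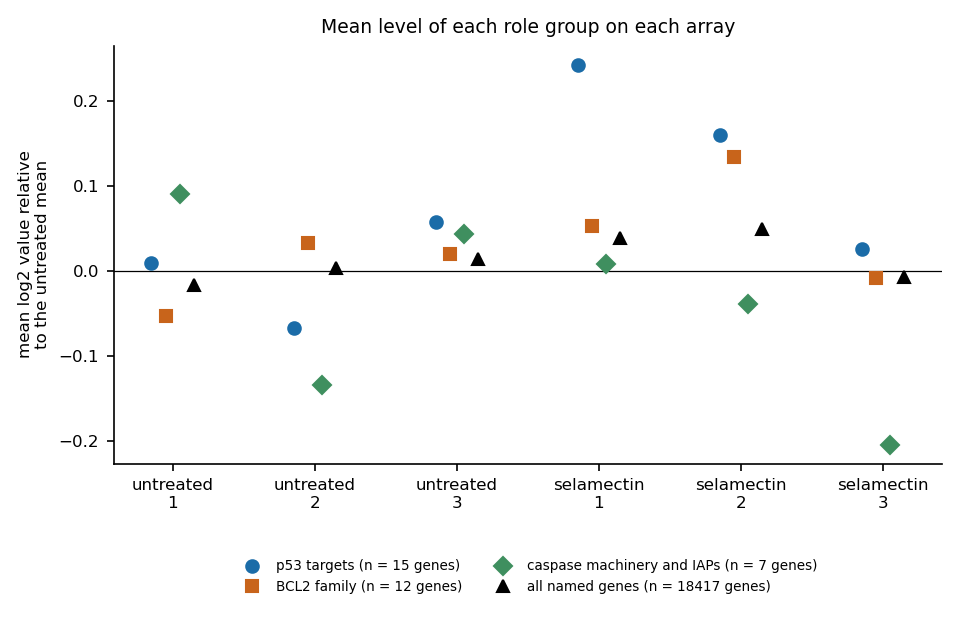
Points give the mean log2 value of each role group, and of all named genes, on each array (horizontal axis) relative to the mean of the untreated arrays (vertical axis, log2 units). The p53 targets are at 0.24 and 0.16 on selamectin arrays 1 and 2 and at 0.03 on array 3, and the caspase machinery is lowest on selamectin array 3 at -0.20, or -0.02 there without CASP9.

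Precision set a bound on the genes that did not pass. The median SE of a log2 change over the 34 genes was 0.10. The 95% interval of 30 of the 31 genes lay within a 1.5-fold change in either direction, which is 0.58 log2 units. ZMAT3 was the exception. Among all 18417 named genes, called or not, 16868 had intervals within that limit, so it is not particular to these genes. These intervals are not adjusted for the number of genes. In bulk RNA, a change in every cell and a change in the share of cells cannot be told apart.

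Of 62 further genes of the same pathways, 54 were measured, and 1 passed, where 4.69% of all named genes did. The gene of p53 itself was on that list and was not analysed here. Among 29 p53 regulators and additional targets, TP53I3, a quinone oxidoreductase known as PIG3, rose 1.53-fold. The 3 untreated arrays gave log2 values of 8.92, 8.90 and 9.14 and the selamectin arrays 9.66, 9.66 and 9.48. The groups did not overlap, and the log2 change was 0.62 ± 0.10 (SE, limma adjusted p = 0.0097). The adjusted p over the 16 alternatives lay between 0.0020 and 0.053, and the call was lost only without untreated array 1 (0.053).

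Several other p53 targets were higher on all selamectin arrays without passing. Of the 29 regulators and targets, 8 were higher without overlap and 1 lower, against 16% and 9.3% of all named genes. The 8 include TP53I3, and also CHEK1 and USP7, which are regulators rather than targets. CDKN1A, the cell cycle inhibitor p21, had log2 values of 9.78, 9.89 and 10.01 untreated and 10.38, 10.45 and 10.05 with selamectin, with array 3 just above the controls. Its change was 0.40 (95% interval 0.14 to 0.66, limma adjusted p = 0.080), and 0.52 (0.012) without selamectin array 3; over the 16 alternatives the adjusted p lay between 0.012 and 0.29. PPM1D, the phosphatase that switches p53 signalling off, stood at 0.35 (adjusted p = 0.054) and PHLDA3, an inhibitor of AKT, at 0.32 (0.071). These genes, and the others named below that did not pass, were chosen after their values were seen. Of the 29 genes, 18 lay above 0 and 11 below it, with a median of 0.06, where 63% of all named genes lay above 0. At an unadjusted p under 0.05 in limma 5 were higher and 2 lower, where 19.9% of all named genes passed that threshold in either direction. Among the 5 higher was CHEK1 at 0.25 (limma adjusted p = 0.17), without overlap. Of the 2 lower ones, ATM, the kinase that signals DNA breaks, stood at -0.45 (adjusted p = 0.14) with overlapping groups. The other, TP53BP1, a break-site adaptor, stood at -0.24 (adjusted p = 0.18) without overlap.

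None of the 25 further apoptosis genes passed in limma, against 4.69% of all named genes. At an unadjusted p under 0.05 there were 2 higher, CASP2 at 0.23 and the mitochondrial channel VDAC3 at 0.26, and 1 lower, the large IAP BIRC6 at -0.35 (adjusted p = 0.10), where 19.9% of all named genes passed that threshold. BNIP3 and BNIP3L, mitophagy receptors that hypoxia also raises, stood at 0.36 and 0.29 with overlapping groups. BNIP3 had 13.06, 12.76 and 12.06 on selamectin arrays 1, 2 and 3, against 12.23 to 12.30 untreated. This is the same order of arrays as for GDF15 and the p53 target mean, and its part in those values was not tested. Over all named genes, selamectin array 3 was the lowest of the selamectin arrays for 48.1%. Array 2 was the highest for 39.7% of them and array 1 for 34.9%. Of the 15 p53 targets, array 3 was the lowest for 60%, array 1 the highest for 73.3% and array 2 for 13.3%.

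**Figure D4:**
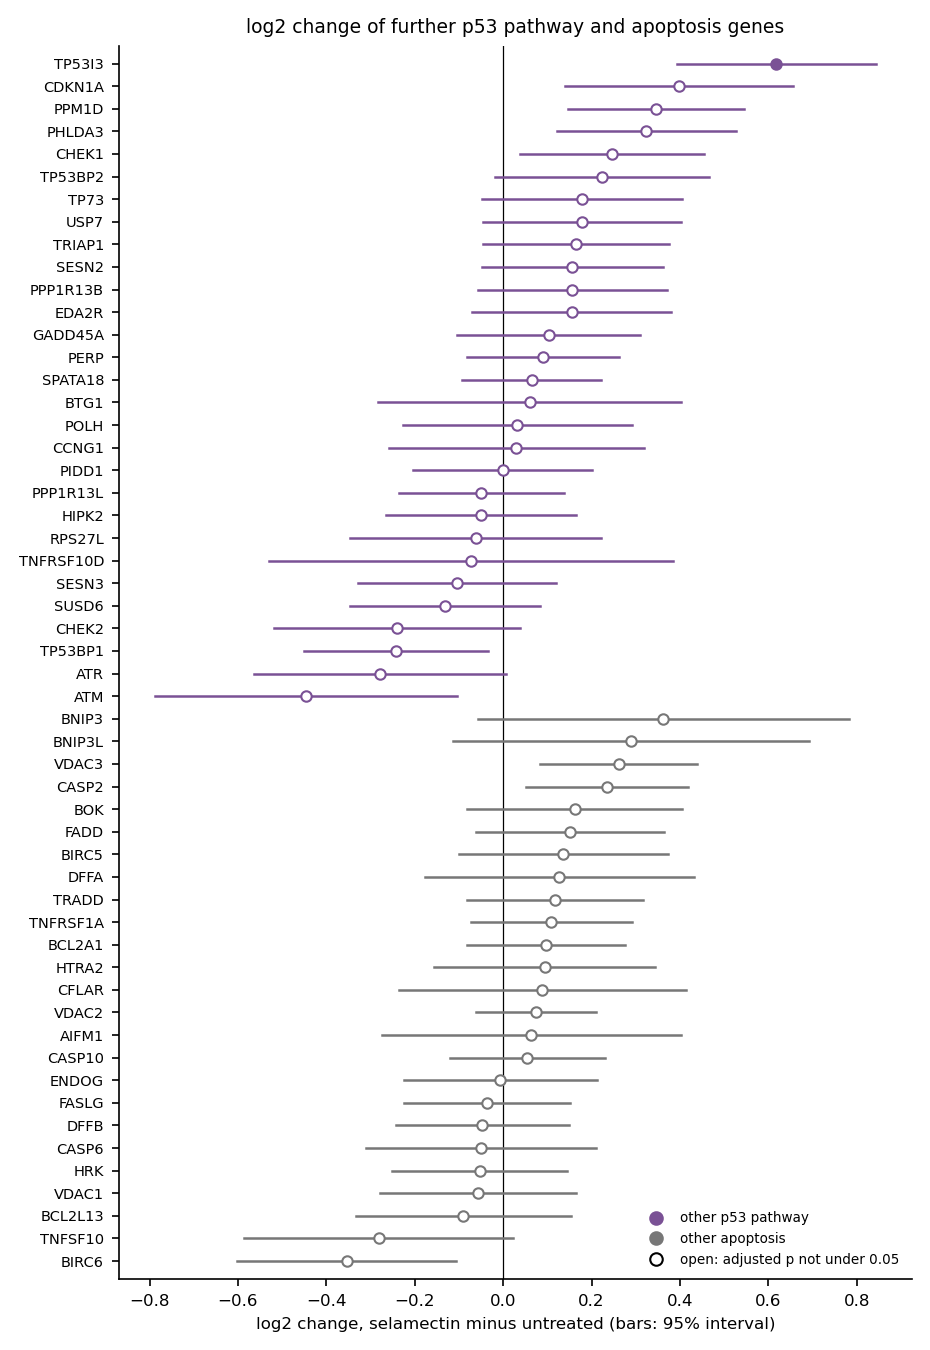
The plot shows the log2 change (horizontal axis) with its 95% interval for 54 further genes, 29 of the p53 pathway and 25 of apoptosis, filled where the limma adjusted p was under 0.05. TP53I3 at 0.62 is the only filled symbol, followed by CDKN1A at 0.40, BNIP3 at 0.36 and PPM1D at 0.35.

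The calls of the 4 genes past the test were followed over the alternative settings. In settings that kept all 6 arrays, MDM2 and TIGAR passed in 9 of 10, CASP9 in 7 of 10 and TP53I3 in 10 of 10. With 1 array left out they passed in 1, 2, 3 and 5 of 6 settings. No setting changed the direction of any of the 4.

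**Figure D5:**
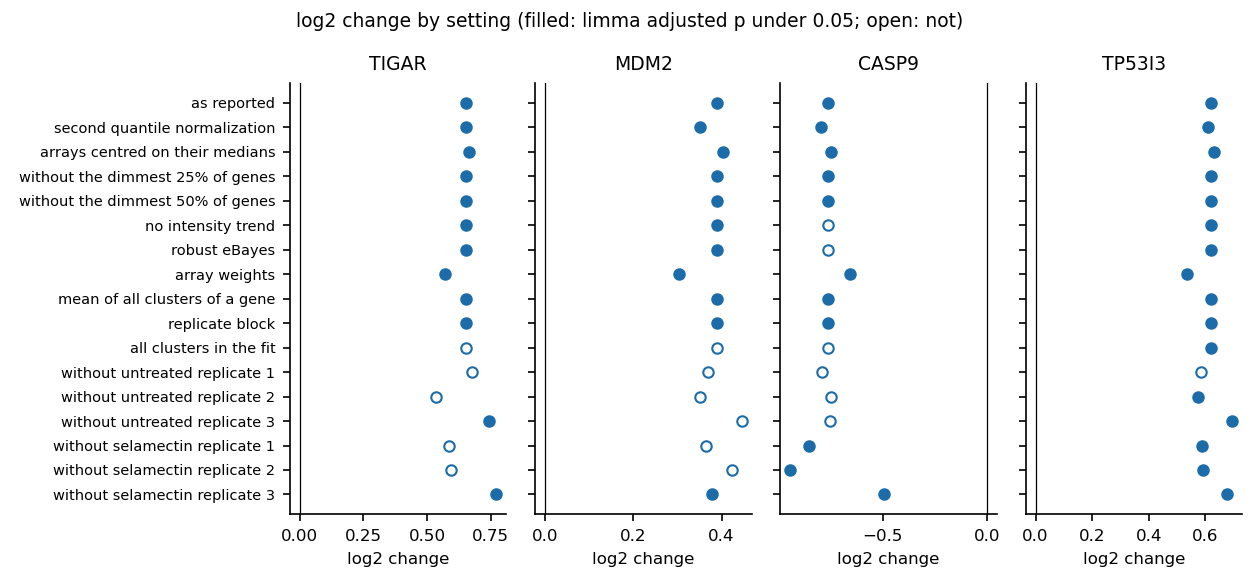
Points give the log2 change (horizontal axis, its own scale in each panel) of TIGAR, MDM2, CASP9 and TP53I3 as reported and under each of 16 alternative settings (rows), filled where the limma adjusted p was under 0.05. Every point for TIGAR, MDM2 and TP53I3 is above 0 and every point for CASP9 is below it, and most open symbols are in rows with 1 array left out.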

How the data were processed

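The arrays were Affymetrix whole-transcript arrays, 3 untreated and 3 with 1 µM selamectin for 24 h. Per the submitters' processing notes, the authors used Affymetrix Expression Console, RMA and Transcriptome Analysis Console, with no version or setting; no source used here names a genome build. The deposited values were taken as log2 from their range, with array medians between 7.47 and 7.51. RMA quantile-normalizes arrays together, which removes a shift of all genes and compresses changes of dim ones.

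Of 33297 clusters, 19460 had 1 symbol in the platform annotation, 1754 had several and 12083 had no entry. The brightest cluster stood for a gene, which left 18417 genes. They were fitted with limma 3.58.1 in R 4.3.3 (lmFit, eBayes with an intensity trend, two-sided, Benjamini-Hochberg over all genes, adjusted p under 0.05), without a replicate block or a filter on dim genes. Promoter windows came from RefSeq, GRCh38.p14. The genes, lists and tests were chosen with earlier results of these data known. Genes given in full had passed, had groups that did not overlap, or were among those with the smallest p or the largest change in all or in their role group; of further pathway genes, those that passed and CDKN1A. The fit was tested on simulated data, where it recovered 98% of changes of 1 log2 unit but 62% of the smaller changes simulated. Of its 173 calls there, 13 were false. Arrays give no depth; their number limits the precision. Scan dates were not used here, so no batch could be tested. Alternatives were normalization, dim-gene filters, eBayes settings, array weights, cluster choice, a replicate block, each array left out and other thresholds.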

Additional observations from a re-analysis of the deposited data

How the results depend on the processing

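Among the 34 genes, the count called higher was 2 as reported, 0 with all clusters in the fit or an adjusted p of 0.01, and between 0 and 4 with 1 array left out (4 without selamectin array 3). The count called lower was 1 as reported, 2 with array weights, 0 without the intensity trend, with a robust fit, with all clusters or at 0.01, and between 0 and 1 with 1 array left out. Among the 54 further genes, those higher were 1 as reported, 2 without the dimmest 25% of genes, 3 without the dimmest 50%, 3 without the trend, 2 with a robust fit, 9 with array weights, 5 at an adjusted p of 0.10 and 0 to 6 with 1 array left out. Those lower were 0 as reported, 4 with array weights, 1 with the replicate block and 0 to 1 with 1 array left out. Over all named genes, those higher numbered 444 as reported, 1822 with array weights, 82 with all clusters in the fit, 879 at 0.10, 77 at 0.01 and 76 to 685 with 1 array left out; those lower numbered 420, 1464, 85, 723, 96 and 100 to 464. The causes were not tested.

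The changes of ZMAT3 and BIRC2 reversed sign, neither past the test in any setting: with 1 array left out ZMAT3 ran from -0.41 to 0.0025 (without selamectin array 3), and BIRC2 from -0.19 to 0.040 (without untreated array 1). For the genes named by the rule, 276 other values under an alternative kept their direction and side of the threshold, 18 lost the call and 5 gained it (MDM4, TNFRSF10A and CDKN1A). GDF15, outside that tally, gained a call without selamectin array 3. Between same-numbered arrays of the groups, the correlations of their deviations over genes were -0.01, 0.24 and -0.14. Between differently numbered arrays they ran from -0.21 to 0.30. The deviations were taken from means of only 3 arrays, so this check cannot show whether the cultures were paired. With the replicate block MDM2 (adjusted p = 0.044), TIGAR (0.049) and CASP9 (0.045) still passed, and 650 of all named genes did.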
